A study of Mus musculus with 9 samples.

Results

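The receptor subunits for glutamate, GABA and glycine were described in RNA of dorsal root ganglia (DRG), which hold the cell bodies of the somatosensory neurons and their glia. Members were chosen by gene symbol alone: Gria1 to Gria4, Grik1 to Grik5, the Grin, Grid, Grm, Gabr and Gabbr genes, and Glra1 to Glra4 with Glrb. The rule found 52 of 55247 genes in the table of read counts, and each of the 52 carried the same identifier and version in GENCODE M21 (build GRCm38, also called mm10). At E18.5, RNA of 3 mouse genotypes was sequenced in 3 libraries per genotype, to ask what loss of the transcription factor Meis2 changes in sensory neurons. WT embryos carried no modified allele. Isl1Cre/+ embryos carried Cre recombinase in 1 copy of Isl1, so that this copy makes Cre in cells that express the gene and no longer serves as a normal Isl1 copy. Isl1Cre/+::Meis2LoxP/LoxP embryos, called mutant here, carried the same Cre allele and a Meis2 gene with LoxP sites around exon 8 on both chromosomes. Mutant and Isl1Cre/+ thus shared the reduced Isl1 dose and WT did not. Whole ganglia were used, so Cre-negative glia, vessels and blood also gave RNA, and neither sex, litter nor pooling of embryos is given for the libraries. The study describes its replicates in general as biological and independent, but which embryos went into which library is not given, and p-values measure the spread between these libraries. In bulk RNA, fewer cells of a type and less RNA per cell cannot be told apart.

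AMPA, kainate and NMDA receptors are glutamate-gated cation channels built as tetramers, while delta receptors share their fold and bind cerebellins at synapses. Metabotropic glutamate receptors and GABA(B) receptors signal through G proteins. GABA(A) and glycine receptors are pentameric chloride channels, and GABA depolarises DRG neurons because these cells keep chloride high. Sensory neurons release glutamate in the spinal cord, and receptors on their own central endings set how much is released: GABA acts there through GABA(A) and GABA(B) receptors, and glutamate through kainate, NMDA and metabotropic receptors.

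The libraries held 23854607 to 29103444 counts, of which 69218 to 89524 fell on the 52 members. Meis2 had 1004 to 1084 counts in the mutant and 2537 to 2919 in the 6 control libraries, although these counts include exons outside the floxed one. All 8 sensory neuron markers, among them Pou4f1, had at least 100 counts in a library, and their summed level was 4650 to 7013 cpm, the count scaled to the library total (CPM). WT library 1 and mutant library 2 stood apart across the tested genes, with median rank correlations of 0.981 and 0.979 with the others against 0.991 to 0.995 for the remaining 7 libraries. Mutant library 2 also held the highest summed levels of skeletal muscle genes (1847 cpm against 55.0 to 799) and of red cell genes (3423 cpm against 299 to 1930). Red cell sums were 1058 to 3423 cpm in the mutant, 299 to 855 for Isl1Cre/+ and 778 to 1834 in WT. Mutant and Isl1Cre/+ thus did not overlap for red cell genes. Muscle sums were 106 to 1847, 55.0 to 133 and 103 to 799 cpm in the same order, and overlapped. The part of such RNA in the comparisons was not tested. Values without WT library 1 or mutant library 2 are given beside calls that were lost, and beside family medians and the closely bounded genes whose sign turned.

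The summed receptor level was carried mostly by 3 genes. Levels are given as these TMM-scaled cpm divided by the kilobases of annotated exon, so that genes of different length can be compared. On this scale Grik1 was highest with a mean of 96.2 ± 8.11 cpm per kb (SD, n = 9), above 97.4% of all tested genes. The GABA(B) subunits Gabbr1 (66.4 ± 4.76) and Gabbr2 (65.6 ± 6.90) followed, and their ranges over the 9 libraries overlapped each other but not that of Grik1. These 3 genes made up 51.9% of the summed level per kb of the 52 members. Grik5, Grin1, Glrb, Grm7, Gria4 and Gabra3 lay lower, between 15.4 and 11.9 cpm per kb, and neighbours among them in the order of levels overlapped. Of the 51 neighbouring pairs in the order of levels, 6 did not overlap in their ranges over all libraries. The range of expression was wide: 11 members had a median above 10 cpm per kb, 19 between 1 and 10, 19 below 1, and 3 were at a median of 0. Levels, and with them the shares and ratios between genes, depend on the length chosen. With the longest annotated transcript in place of all exons Grik1 came to 177 and Grin1 to 34.5 cpm per kb. The order of the first 3 genes stayed as given, while some lower genes changed places.

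**Figure D1:**
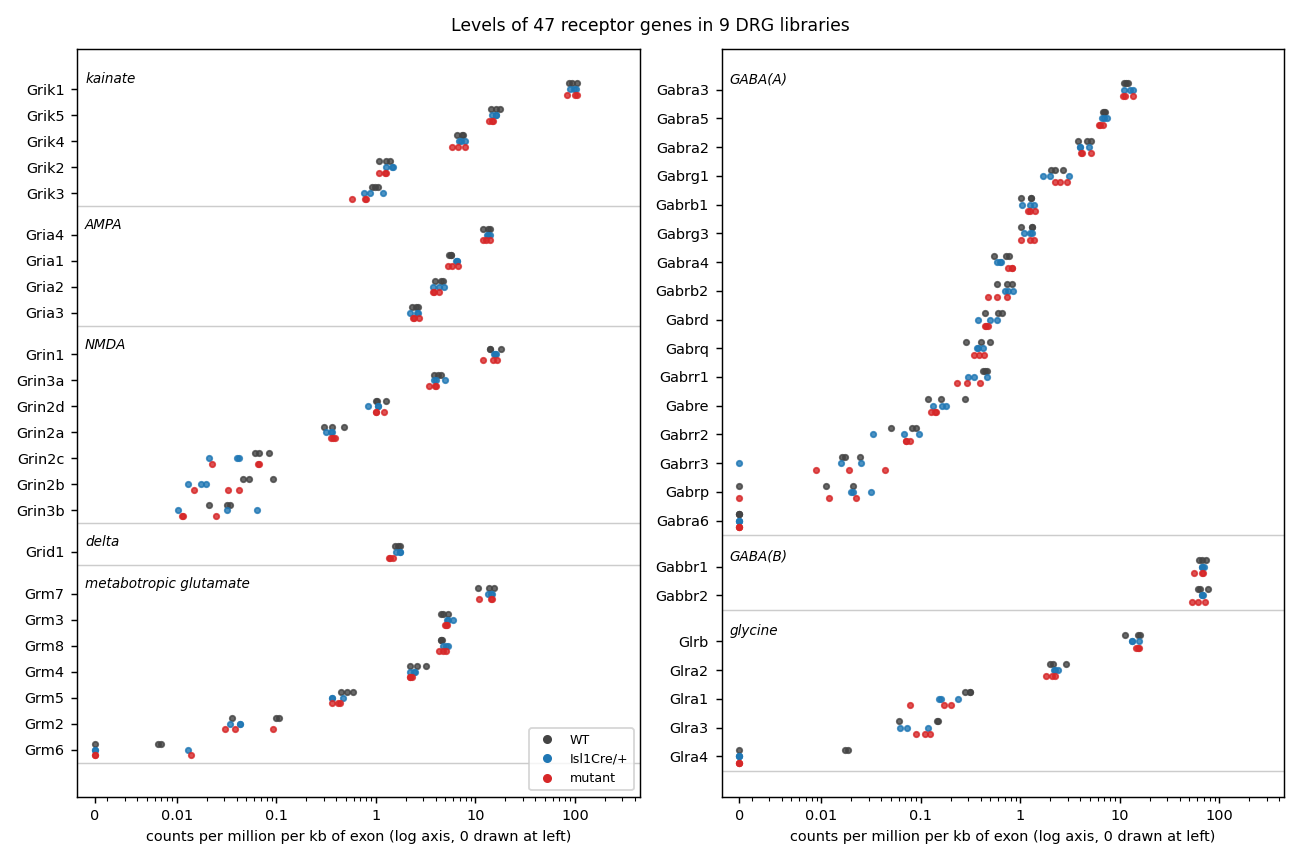
Level of 47 receptor genes in cpm per kb of exon (log axis, libraries at 0 drawn at the left edge). Each point is 1 library, coloured by genotype, with genes sorted by level within families. Grik1, Gabbr1 and Gabbr2 lie highest in all 9 libraries, and the 3 genotypes lie on top of each other for most genes.

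Among the ionotropic glutamate receptors the kainate family dominated. The summed level of the 5 kainate genes was 4.67 times that of the 4 AMPA genes as a mean of the 9 libraries (range 4.30 to 5.04). This range does not cover the choice of length: with the longest transcript Grik1 came to 177 and Gria4 to 15.3 cpm per kb. Grik1, which encodes GluK1, the kainate receptor subunit long associated with nociceptors, had 589, 709 and 625 cpm in the WT libraries, 605, 692 and 661 for Isl1Cre/+ and 711, 560 and 667 in the mutant. The groups overlapped fully. Its share of the summed kainate level was 78.8% ± 1.75 in WT, 79.3% ± 1.16 for Isl1Cre/+ and 80.5% ± 1.28 in the mutant (SD, n = 3 each). The auxiliary-type subunits Grik5 (GluK5) and Grik4 (GluK4), which form channels only together with GluK1 to GluK3, made up 13.4% ± 1.97 and 5.92% ± 0.272 of the family in WT. Grik2 (1.28 cpm per kb over all libraries) and Grik3 (0.88) were low.

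Gria4 led the AMPA family. This gene, which encodes GluA4, a subunit with fast kinetics, had 75.4, 89.2 and 84.4 cpm in WT, 83.9, 82.0 and 88.6 for Isl1Cre/+ and 88.6, 75.2 and 81.1 in the mutant libraries, again overlapping. It held 51.3% ± 1.18 of the AMPA level in WT, ahead of Gria1 (21.7% ± 0.983), Gria2 (17.2% ± 0.571) and Gria3 (9.73% ± 0.366; SD, n = 3 each). Gria2 encodes GluA2, the subunit that in its edited form makes AMPA receptors impermeable to calcium. Its share was 16.1% ± 1.23 for Isl1Cre/+ and 15.7% ± 0.664 in the mutant. RNA editing was not measured here.

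The NMDA family was led by Grin1, the obligatory subunit GluN1. Its level was 177, 136 and 136 cpm in WT, 154, 155 and 149 for Isl1Cre/+ and 159, 117 and 145 in the mutant, with WT library 1 highest and mutant library 2 lowest. Per kb of exon, Grin1 exceeded the sum of Grin2a to Grin2d, its glutamate-binding partners, by 10.2 times as a mean of all libraries (range 7.25 to 12.9). With the longest transcript as length the ratio is larger, with Grin1 at 34.5, Grin2d at 1.29 and Grin2a at 0.447 cpm per kb. The glycine-binding subunit Grin3a came second with 19.9% ± 3.26 of the family level in WT. Grin2d (5.16% ± 0.159) was the most abundant of the 4 GluN2 genes, followed by Grin2a (1.82% ± 0.575), while Grin2b and Grin2c had mean shares of 0.295% and 0.337% (SD, n = 3 each). Of the exonic bases of Grin1, 13.5% are shared with genes on the opposite strand (Grin1os), and since the strand option of the counting is not given in the sources used here, reads there cannot be assigned to either gene. The delta receptor gene Grid1 was low, at 1.59 ± 0.158 cpm per kb (SD, n = 9).

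Grm7 was the main metabotropic receptor. It encodes mGlu7, a presynaptic receptor of low glutamate affinity, and had 62.7, 90.0 and 81.1 cpm in WT, 79.2, 83.7 and 87.5 for Isl1Cre/+ and 86.1, 64.3 and 84.1 in the mutant. The lowest 2 of these 9 values were WT library 1 and mutant library 2, so the groups overlapped. Grm7, Grm8 and Grm4 belong to group III of the family and Grm3 to group II, and all couple to Gi/o. Together these 4 held nearly all of the family level, with WT shares of 50.7% (Grm7), 18.8% (Grm3), 17.4% (Grm8) and 10.3% (Grm4). With the longest transcript as length Grm8 lay above Grm3, at 9.80 against 5.15 cpm per kb. Grm5, a group I receptor that couples to Gq, was low, with a share of 2.0%. Grm2 and Grm6 were close to the detection limit.

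Gabra3 led the alpha subunits of GABA(A) receptors. It had 45.1, 43.4 and 47.0 cpm in the WT libraries, 42.8, 49.4 and 53.4 for Isl1Cre/+ and 42.2, 52.7 and 44.5 in the mutant, and the 3 genotypes overlapped. Of the alpha subunit level in WT, Gabra3 held 45.0% ± 1.79, Gabra5 27.1% ± 1.75, Gabra2 17.6% ± 2.06 and Gabra4 2.65% ± 0.365 (SD, n = 3 each). Gabra6, a gene of cerebellar granule cells, had 0 counts in all 9 libraries, which allows a level of up to 0.102 to 0.122 cpm in a library (3 counts, counting error only).

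**Figure D2:**
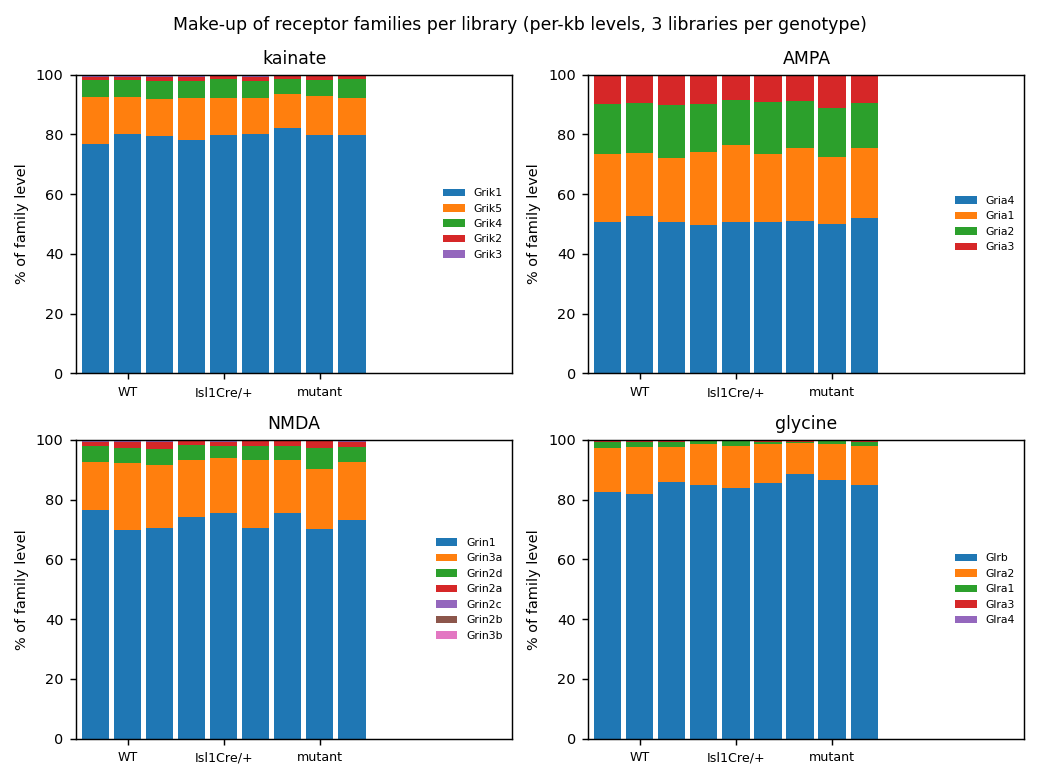
Share of each subunit gene in the summed level per kb of its family (%), 1 bar per library, 3 libraries per genotype. In each of the 4 families the same gene held the largest share in every library: Grik1, Gria4, Grin1 and Glrb.

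Many GABA(A) genes lie in clusters, and neighbours in a cluster differed to unlike degrees in level. On the X chromosome (72255999 to 72842602) Gabra3 exceeded Gabrq by 30.5 times (range over libraries 24.1 to 40.1) and held 95.6% of the summed level of the cluster. The cluster of chromosome 5 (70751047 to 72149037), with Gabrg1, Gabra2, Gabra4 and Gabrb1, was more even. Gabra2 exceeded Gabrg1 there by 1.86 times (1.59 to 2.36) and held 50.7%.

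The 2 GABA(B) subunits, which work only as a heterodimer, were present at nearly equal levels per kb of exon. With the longest transcript as length they came to 98.3 (Gabbr1) and 76.3 (Gabbr2) cpm per kb. Gabbr1 had 568, 521 and 490 cpm in WT, 516, 543 and 520 for Isl1Cre/+ and 522, 435 and 526 in the mutant, and only mutant library 2 fell below the other 8. The ratio of Gabbr1 to Gabbr2 per kb was 1.01 ± 0.0596 in WT, 1.01 ± 0.0158 for Isl1Cre/+ and 1.03 ± 0.0890 in the mutant (SD, n = 3 each). Among glycine receptor genes Glrb, the beta subunit that binds the scaffold gephyrin, had 52.4, 70.2 and 74.8 cpm in WT, 62.3, 61.9 and 73.2 for Isl1Cre/+ and 72.1, 70.4 and 67.0 in the mutant, with WT library 1 lowest and the others mixed. The alpha subunits Glra1 to Glra4, which bind glycine, summed to 0.177 times the level of Glrb per kb as a mean of all libraries (range 0.128 to 0.219). Glra2, the fetal alpha subunit, made up most of them, with 13.9% of the family level in WT.

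For tests, genes needed at least 100 counts in at least 1 library, which 35 members and 13200 genes in all reached. The other 17 members included Gabra6, Gabrd, Gabrp, Gabrr1 to Gabrr3, Glra1, Glra3, Glra4, Grin2b and Grin2c. They summed to 0.493% of the receptor level per kb and had at most 77 counts in a library. What size of difference could be detected in them was not measured. The genotypes were compared with edgeR's quasi-likelihood test (two-sided, 3 libraries against 3, each pair fitted alone). A gene met the criterion when it changed by 1.2 times or more with an unadjusted p below 0.05. Both thresholds follow the methods of the study. After Benjamini-Hochberg adjustment over all 13200 genes, edgeR left 0 of 35 members with an adjusted p below 0.05 in each comparison, and the lowest adjusted p of a member was 0.9996. The background of that rule was 0.00758% of all tested genes in mutant versus WT, 0.00758% in mutant versus Isl1Cre/+, 0% in Isl1Cre/+ versus WT and 0.00758% in mutant versus both controls. An unadjusted p below 0.05 was reached by 1 of 35 members in mutant versus WT (background 0.371%), 4 in mutant versus Isl1Cre/+ (2.73%), 1 in Isl1Cre/+ versus WT (1.79%) and 4 in mutant versus both controls (1.2%).

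Most receptor genes did not differ between genotypes beyond the spread of the libraries, and the abundant ones were bounded closely. For Grik1 the log2 fold change was 0.01 in mutant versus WT (95% interval -0.28 to 0.31) and -0.02 in mutant versus Isl1Cre/+ (-0.26 to 0.23). For Gabbr1 these values were -0.09 (-0.36 to 0.18) and -0.09 (-0.30 to 0.12), and for Gabra3 0.04 (-0.20 to 0.29) and -0.06 (-0.32 to 0.20). The whole 95% interval lay within a fold change of 1.5 for 30 of 35 members in mutant versus WT, for 30 in mutant versus Isl1Cre/+ and for 34 in Isl1Cre/+ versus WT. Changes smaller than that lie within these intervals. The signs of such small values turned with single libraries: versus WT, Grik1 was at -0.05 without WT library 1 and at 0.12 without mutant library 2, Gabbr1 at 0.02 without mutant library 2, and Gabra3 at -0.04 without mutant library 2. Versus Isl1Cre/+ without mutant library 2, Grik1 was at 0.08 and Gabbr1 at 0.0007.

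**Figure D3:**
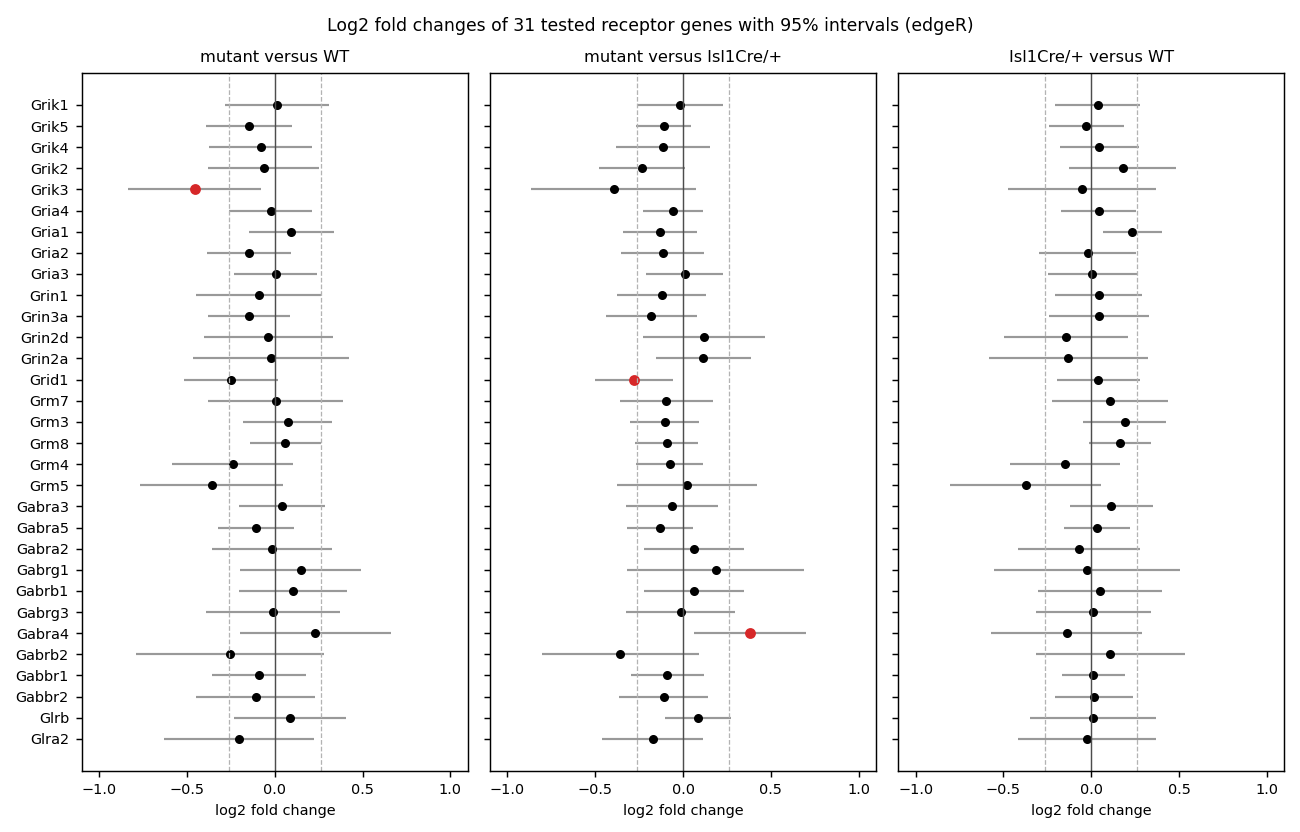
Log2 fold change (point) and 95% interval (line) of 31 tested receptor genes in 3 comparisons, from edgeR. Dashed lines mark a fold change of 1.2 and red points the genes that met the criterion: Grik3 in mutant versus WT, and Grid1 and Gabra4 in mutant versus Isl1Cre/+.

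In mutant versus WT, 1 of 35 members met the criterion, Grik3, which was lower (2.86%, against a background of 0.318% of all tested genes). In mutant versus Isl1Cre/+ there were 3 of 35, which included Gabra4, higher, and Grid1, lower (8.57%, background 1.67%). In Isl1Cre/+ versus WT there were 0 of 35 (background 1.4%), also with DESeq2 and with limma voom. With all 6 controls in 1 group, 3 of 35 met it, Grid1 and Grik3 lower and Gabra4 higher (8.57%, background 0.674%). The comparisons share libraries and are not independent of each other. Libraries of the 2 genotypes did not overlap for 3 of 35 members in mutant versus WT (8.6%, background 2.76%), 6 in mutant versus Isl1Cre/+ (17.1%, background 7.65%) and 3 in Isl1Cre/+ versus WT (8.6%, background 5.66%). Against the 6 controls together it was 1 of 35 (2.9%, background 0.848%).

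Grid1 was the member whose 3 mutant libraries all lay below all 6 controls. It encodes GluD1, a delta receptor that links to cerebellins at synapses (chromosome 14, 34820108 to 35583379, forward strand). Counted reads came to 269, 267 and 299 for WT, 308, 267 and 299 for Isl1Cre/+ and 236, 213 and 201 in the mutant, which correspond to 10.1, 9.40 and 10.3 cpm, 10.4, 9.50 and 10.5 cpm, and 8.83, 8.05 and 8.21 cpm. The log2 fold change was -0.28 versus Isl1Cre/+ (SE 0.0947, unadjusted p = 0.0206), -0.25 versus WT (SE 0.114, unadjusted p = 0.0634) and -0.26 versus both controls (SE 0.0815, unadjusted p = 0.00850). The fold change versus both controls, 1.2, sat at the threshold of the criterion, and Grid1 met the criterion in 5 of 17 alternatives of that comparison and in 8 of 14 versus Isl1Cre/+. Versus Isl1Cre/+ the call was lost without mutant library 2 (-0.24, unadjusted p = 0.0658), mutant library 3 (-0.26, unadjusted p = 0.0539), Isl1Cre/+ library 1 (-0.26, unadjusted p = 0.0671) or Isl1Cre/+ library 3 (-0.25, unadjusted p = 0.0637). Versus both controls it was lost without mutant library 2 (-0.23, unadjusted p = 0.0434) because the fold change fell below 1.2, and likewise without mutant library 3 or library 1 or 3 of WT or of Isl1Cre/+ (-0.26 to -0.25). Without mutant library 2 the value versus WT was -0.20 (unadjusted p = 0.179). Grid1 was known from earlier analysis of these libraries, so its choice is not independent.

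Grik3 was lower in the mutant than in WT. The gene encodes the low-affinity kainate subunit GluK3 (chromosome 4, 125490700 to 125714173, forward strand), and its counts were 219, 266 and 255 in WT, 232, 192 and 302 for Isl1Cre/+ and 187, 136 and 174 in the mutant. In cpm the mutant libraries (6.99, 5.14 and 7.11) lay below the WT libraries (8.20, 9.37 and 8.82), whereas Isl1Cre/+ spread from 6.83 to 10.6 and overlapped with both. The log2 fold change was -0.46 versus WT (SE 0.162, unadjusted p = 0.0246), -0.39 versus Isl1Cre/+ (SE 0.201, unadjusted p = 0.0878) and -0.43 versus both controls (SE 0.156, unadjusted p = 0.0203), with an exact permutation p of 0.0595 for the last. Mutant library 2 held the lowest value. Without it the log2 fold change was -0.30 versus WT (unadjusted p = 0.0815) and -0.28 versus both controls (unadjusted p = 0.121), and both calls were lost. The call versus WT was also lost without WT library 2 (-0.41, unadjusted p = 0.0824) or WT library 3 (-0.45, unadjusted p = 0.0585). The criterion was met in 11 of 14 alternatives versus WT and in 16 of 17 versus both controls, where only leaving out mutant library 2 ended it. That library also had the most muscle and red cell RNA. The part of that RNA in the result was not tested.

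Gabra4 was higher in the mutant than in Isl1Cre/+. It encodes alpha4, a subunit of extrasynaptic receptors (chromosome 5, 71569749 to 71658308, reverse strand). It had 89, 125 and 136 counts in the WT libraries, 104, 108 and 110 for Isl1Cre/+ and 123, 132 and 123 in the mutant, or 3.33, 4.40 and 4.70, 3.52, 3.84 and 3.86, and 4.60, 4.99 and 5.02 cpm. Mutant and Isl1Cre/+ did not overlap, and WT ran from the lowest value of all into the mutant range. The log2 fold change was 0.38 versus Isl1Cre/+ (SE 0.136, unadjusted p = 0.0256; criterion met in 8 of 14 alternatives), 0.23 versus WT (SE 0.184, unadjusted p = 0.246) and 0.30 versus both controls (SE 0.136, unadjusted p = 0.0484; exact permutation p = 0.0476). Versus both controls the criterion was met in 5 of 17 alternatives. Versus Isl1Cre/+ the call was lost without mutant library 2 (0.37, unadjusted p = 0.0549) or 3 (0.36, unadjusted p = 0.0672) and without Isl1Cre/+ library 1 (0.34, unadjusted p = 0.0806) or 2 (0.40, unadjusted p = 0.0562). Versus both controls it was lost without WT library 1 (0.26, unadjusted p = 0.0699), without mutant library 2 (0.30, unadjusted p = 0.106), and without any other mutant or any Isl1Cre/+ library (0.27 to 0.34). Its share of the alpha subunit level was 2.65% ± 0.365 in WT, 2.38% ± 0.115 for Isl1Cre/+ and 3.12% ± 0.203 in the mutant (SD, n = 3 each).

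**Figure D4:**
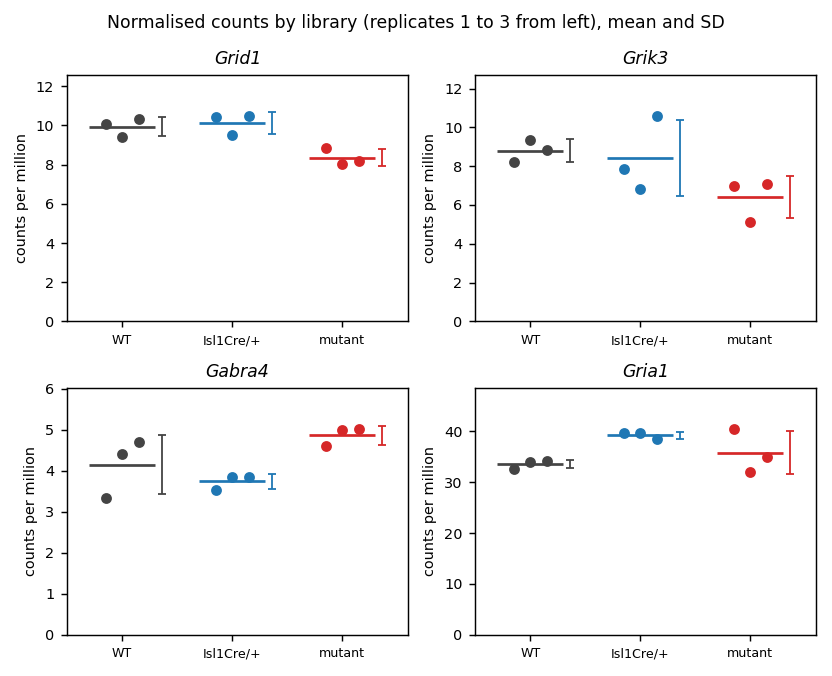
Normalised counts (cpm) by library for Grid1, Grik3, Gabra4 and Gria1 (points, replicates 1 to 3 from left to right within each genotype), with the mean (horizontal line) and SD (bar to the right). The Grid1 mutant libraries (8.05 to 8.83 cpm) lie below all 6 controls (9.40 to 10.5 cpm), and Isl1Cre/+ lies above WT for Gria1.

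Of the genes that met the criterion, Gabra4 and Grik3 had promoter sequence in the RefSeq table (GRCm38.p6), in which 36 of the 52 members matched. The bases before the annotated start are shown because these 2 genes met the criterion in opposite directions in mutant versus both controls. Both are rich in GC and carry GC boxes, the letters GGGCGG on either strand, which are in capitals. The Gabra4 stretch (chr5:71658364-71658558, reverse strand) has 195 bases, 63.6% GC and 2 GC boxes, and the 55 bases next to the start were left out because they are covered by an exon of Gabrb1, the divergent neighbour. The Grik3 stretch (chr4:125490446-125490695, forward strand) has 250 bases, 82.0% GC and 6 GC boxes.
Gabra4: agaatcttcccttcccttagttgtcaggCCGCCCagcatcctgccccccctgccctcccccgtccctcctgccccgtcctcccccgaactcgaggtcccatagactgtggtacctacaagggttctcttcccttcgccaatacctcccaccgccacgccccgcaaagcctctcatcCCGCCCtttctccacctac
Grik3: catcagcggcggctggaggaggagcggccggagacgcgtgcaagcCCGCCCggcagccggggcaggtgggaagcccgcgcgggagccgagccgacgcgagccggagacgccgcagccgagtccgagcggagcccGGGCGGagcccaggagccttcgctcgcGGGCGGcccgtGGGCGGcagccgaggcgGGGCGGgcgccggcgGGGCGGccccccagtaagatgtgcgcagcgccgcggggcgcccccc
A GC box was found in 48.8% of the 43 windows of members and in 32.7% of all 32851 promoter windows of the table. The letters TGACAG, the core bound by MEIS proteins, searched on both strands, were found in 16.3% of the windows of members (Gabra3, Gabrb2, Glra3, Grin2c, Grm2 and Grm8) and in 15.9% of all windows. Neither printed stretch holds them, which says only that these letters are not in these windows.

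Between Isl1Cre/+ and WT the member with the lowest p was Gria1, the gene of the AMPA subunit GluA1. It had 871, 967 and 987 counts in the WT libraries, 1169, 1117 and 1094 for Isl1Cre/+ and 1082, 848 and 857 in the mutant. All Isl1Cre/+ libraries (39.6, 39.7 and 38.4 cpm) were above all WT libraries (32.6, 34.1 and 34.1 cpm), and the mutant with 40.5, 32.1 and 35.0 cpm overlapped with both. The log2 fold change was 0.23 (SE 0.0722, unadjusted p = 0.0133), below the fold change of 1.2, and 0.19 without WT library 1 (unadjusted p = 0.0134). Grm8 (0.16, SE 0.0746, unadjusted p = 0.0629) likewise had all Isl1Cre/+ libraries above all WT libraries.

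By family, differences in the mutant were small, and several of their directions changed with single libraries. Of the 15 ionotropic glutamate receptor genes tested, 12 had a negative log2 fold change versus WT and 12 versus Isl1Cre/+, with medians of -0.08 and -0.12, and 1 met the criterion in each comparison. Without mutant library 2 these medians were -0.04 and -0.05. The AMPA genes were split, 2 above and 2 below 0 versus WT (median -0.01, and 0.01 without mutant library 2). Of the 5 metabotropic genes tested, 3 were above 0 versus WT (median 0.005, and -0.09 without WT library 1) and 4 below 0 versus Isl1Cre/+ (median -0.09). All 5 kainate genes were below 0 versus Isl1Cre/+ (median -0.12), with 0 meeting the criterion. Without mutant library 2 Grik1 was above 0 (0.08), Grik4 was at -0.01, and the kainate median was -0.06. For GABA(A) genes 7 of 11 were above 0 versus WT and 6 of 11 versus Isl1Cre/+, with medians of 0.04 and 0.02, and the second of these turned to -0.001 when libraries were scaled by size alone. Without WT library 1 the median versus WT was -0.07. Without mutant library 2 the medians were 0.13 versus WT and 0.09 versus Isl1Cre/+. The median versus Isl1Cre/+ was also below 0 without Isl1Cre/+ library 1 or without mutant library 1, at its lowest -0.04. Both GABA(B) genes were below 0 in both comparisons (medians -0.10 and -0.10), but without mutant library 2 these medians were 0.01 and -0.003. Over all 35 members the median was -0.02 versus WT and -0.09 versus Isl1Cre/+, where 60.0% and 68.6% were lower, beside medians of -0.01 and 0.0003 and shares of 53.8% and 49.8% lower for all 13200 genes. Without mutant library 2 the medians of the 35 were 0.02 and -0.007. In Isl1Cre/+ versus WT the median of the 35 was 0.03, with 34.3% lower, beside -0.002 and 50.7% for all 13200 genes. The 2 comparisons with Isl1Cre/+ share its libraries, so opposite signs in them are not independent.

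Below the filter, Grin2b stood out and was singled out after its values were seen. The gene encodes GluN2B, an NMDA subunit abundant in the embryonic brain and spinal cord. It had 61, 33 and 38 counts in the WT libraries, 13, 9 and 14 for Isl1Cre/+ and 10, 28 and 20 in the mutant, so all WT libraries were above all others. Fitted with every gene that had a count, its log2 fold change was -1.88 in Isl1Cre/+ versus WT (SE 0.323, unadjusted p = 4.2e-05, adjusted p = 0.136 after Benjamini-Hochberg) and -1.05 in mutant versus WT (SE 0.362, unadjusted p = 0.0106). In mutant versus Isl1Cre/+ it was 0.81 (SE 0.383, unadjusted p = 0.0484, adjusted p = 0.867). Glra1, the adult glycine receptor alpha subunit of the spinal cord, had 20, 19 and 22 counts in the WT libraries, 11, 16 and 11 for Isl1Cre/+ and 5, 11 and 12 in the mutant (log2 fold change -0.69, unadjusted p = 0.0445, and -0.97, unadjusted p = 0.0217, versus WT). Genes of inhibitory neurons of the central nervous system were also highest in WT: Gad2 with 0.660 ± 0.208 cpm in WT, 0.0590 ± 0.0542 for Isl1Cre/+ and 0.270 ± 0.0980 in the mutant, Slc6a5 with 0.962 ± 0.118, 0.0930 ± 0.0541 and 0.394 ± 0.252, and Slc32a1 with 0.685 ± 0.244 in WT, 0 in each Isl1Cre/+ library and 0.265 ± 0.237 in the mutant (SD, n = 3 each). The 8 spinal neuron markers summed to 15.2 to 22.4 cpm in WT, 15.1 to 17.9 for Isl1Cre/+ and 15.6 to 20.2 in the mutant. In cpm, 5 of them (Pax2, Lhx1, Lhx5, Gbx1 and Tfap2b) had all WT libraries above all Isl1Cre/+ libraries, and 0 had all WT libraries above all others. Slc5a7, the most abundant, overlapped between the genotypes. The 6 markers of central glia summed to 38.5 to 61.7 cpm in WT, 34.5 to 61.6 for Isl1Cre/+ and 42.3 to 46.4 in the mutant, and 0 of them had all WT libraries above all Isl1Cre/+ libraries. Olig1 and Olig2 were highest in WT library 1, whereas Gfap, Aqp4 and Bcan had more counts in Isl1Cre/+ library 1 than in any other. The part of such RNA in the Grin2b and Glra1 values was not tested.

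The genes that make, carry and clear these transmitters, and the partners of the receptors, were examined in the same fits. Of 62 such genes, 57 were tested, and edgeR gave 0 that met the criterion in mutant versus WT (background 0.318% of all tested genes) and 0 in mutant versus Isl1Cre/+ (background 1.67%), counts that at such backgrounds say little about these genes. An unadjusted p below 0.05 was reached by 1 and 2 of them. In Isl1Cre/+ versus WT, where the background was 1.4%, 2 of 57 met it: 1 was higher, Shisa6 (log2 fold change 0.34, unadjusted p = 0.0425), and 1 lower, Cacng2 (-0.46, unadjusted p = 0.0247), both auxiliary subunits of AMPA receptors, and neither passed adjustment. Slc17a6, the vesicular glutamate transporter VGLUT2, was at 90.1 cpm per kb and the kainate receptor auxiliary subunit Neto2 at 41.7, both in the range of the most abundant receptor genes. Gad1, the enzyme of GABA synthesis, was at 0.199 cpm per kb. The cerebellin gene Cbln2, a ligand of delta receptors, was at 18.2 cpm per kb, above the receptor gene Grid1. Kctd8 led the auxiliary subunits of GABA(B) receptors with 28.2 cpm per kb. The median log2 fold changes of the 57 genes were -0.03 versus WT and -0.01 versus Isl1Cre/+.

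Within a genotype, the deviations of some libraries ran along the GC content of the transcripts, and those of others did not. Deviations are log2 ratios of a library to the mean of the other 2 libraries of its genotype. In WT library 1, 26 of 35 members were below the other WT libraries (median -0.18), from -0.47 for Glrb to 0.40 for Grm4, and the rank correlation of the deviation with GC was 0.652 across the 35 members and 0.571 across 13199 tested genes. In WT library 3 these correlations were -0.729 and -0.499. In Isl1Cre/+ libraries 1 and 3 they were 0.418 and -0.478 across the members, and in library 2 0.081. WT library 2 and mutant libraries 1 and 3 had -0.352, -0.0689 and 0.352. In mutant library 2, 26 of 35 members were below the other mutant libraries (median -0.14), lowest Grik3 with -0.42, and the correlation was -0.356 across the members but -0.047 across all tested genes. The correlations run over genes and not over independent replicates, and libraries of a genotype are compared with each other, so that a deviation of 1 library enters the others. Grin1 and Gabbr2, with high GC, were highest of the WT libraries in WT 1, and Glrb and Grm7 were lowest there.

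**Figure D5:**
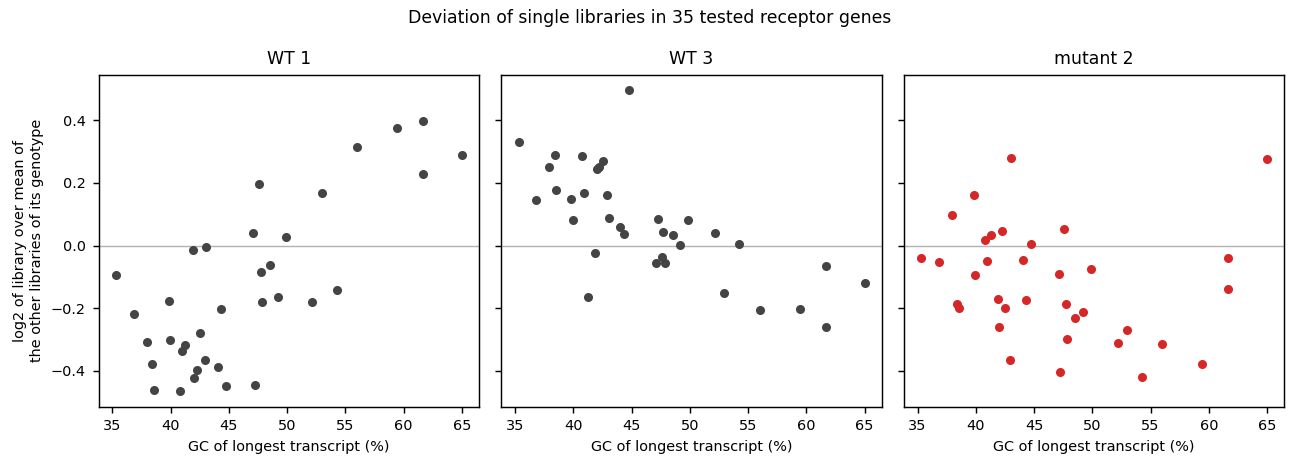
Deviation of WT libraries 1 and 3 and mutant library 2 from the mean of the other libraries of the same genotype (log2 ratio) against the GC content of the longest transcript (%), with 1 point for each of the 35 tested receptor genes. In WT 1 the points rise with GC (rank correlation 0.652), in WT 3 they fall (-0.729).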

How the data were processed

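The members and gene lists were chosen with earlier results of these data known. The authors selected poly(A) RNA, made libraries with unique molecular identifiers (CORALL), aligned single-end reads to mm10 with STAR 2.7.10, removed duplicates by identifier and counted uniquely mapped reads per gene with HTSeq 0.6; the deposited counts are not normalized. Annotation release and strand option are not given in the sources used here. The deposited log2 fold changes and mean log2 expression, the deposited p-values and the deposited scores (moderated statistics and log odds) are the authors' limma voom results and were not used.

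Counts were normalized by TMM and tested with edgeR 4.0.16 in R 4.3.3 by the quasi-likelihood test, keeping genes that reached 100 counts in any of the 9 libraries, with each pair of genotypes alone and the mutant against all 6 controls. Adjustment (Benjamini-Hochberg) was over all 13200 genes tested, and the procedure was tested on simulated data. Exonic lengths, positions and GC came from GENCODE M21, promoters from RefSeq (GRCm38.p6). Library deviations used a prior of 0.5 cpm. Libraries of 1 genotype gave chi-square values of 12.6 to 129 per degree of freedom, more than counting error gives, so none was the same library sequenced again. Counting limits cover counting error only. Values in every library are given for members that met the criterion, Grid1, the highest member of each family and members whose mutant libraries lay apart from all controls; Gria1, Grin2b, Glra1 and the pathway genes named with values were chosen after their values were seen. Alternatives were DESeq2's size factors, library size only, no filter, filterByExpr, DESeq2 1.42.0 (Wald), voom in limma 3.58.1, all genotypes in 1 fit, a block for the replicate number, leaving out each library, no fold requirement, an adjusted p, and the longest transcript as gene length. Some members are not reported here by name and are not drawn, but stay in the counts, sums and medians.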

Additional observations from a re-analysis of the deposited data

How the results depend on the processing

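Counts of receptor genes meeting the criterion are small and depend on the filter and on single libraries. Mutant versus WT (1 gene): without a filter on low counts 3, with filterByExpr 3 (Grik3, Glra1 and Grin2b in both), with an adjusted p 0, and 0 to 2 with a library left out (0 without WT 3 or mutant 2, 2 without WT 1). Mutant versus Isl1Cre/+ (3 genes): without a filter 5, with DESeq2's Wald test 1, with an adjusted p 0, and 1 to 4 with a library left out (1 without Isl1Cre/+ 1 or mutant 2). Isl1Cre/+ versus WT (0 genes): without a filter 3, with filterByExpr 2, with all genotypes in 1 fit 1, without the fold requirement 1 (Gria1), and 0 to 2 with a library left out (2 without WT 1; 1 without Isl1Cre/+ 3). Mutant versus both controls (3 genes): with DESeq2's size factors 1, without a filter 1, with DESeq2's Wald test 1 (Grik3 in each), with an adjusted p 0, and 0 to 4 with a library left out (0 without mutant 2; 1 without Isl1Cre/+ 1 or 3). With fewer libraries or other genes in the fit the variance estimate changes; the cause of the other shifts was not tested. The log2 fold change of Grik3 in Isl1Cre/+ versus WT, -0.05, ran from -0.26 to 0.078 with a library left out (above 0 without WT 2, without Isl1Cre/+ 1 and without Isl1Cre/+ 2). The share of all tested genes that met the criterion also moved with the filter: without one it was 1.25%, 3.18%, 2.6% and 2.45% in mutant versus WT, mutant versus Isl1Cre/+, Isl1Cre/+ versus WT and mutant versus both controls, and with filterByExpr 0.673%, 2.64%, 2.21% and 1.4%. For the members that met the criterion in any comparison, 188 log2 fold changes under alternatives kept direction and side of the threshold. Of the others, 40 no longer passed, 5 newly passed and 3 turned direction. Turns of sign in other members, such as Grik1, are not in these numbers. Family medians moved beyond the spread in 8 cases.

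Whether replicate numbers pair libraries is not given. Deviations of libraries with the same number correlated between -0.57 and 0.39 over genotype pairs. Deviations within a genotype offset each other, so these correlations cannot decide it. With the replicate number as a block, 1, 2, 1 (Grm5) and 2 members met the criterion in mutant versus WT, mutant versus Isl1Cre/+, Isl1Cre/+ versus WT and mutant versus both controls. The 17 members under 100 counts were not tested in the main fits. Without the filter, standard errors of those with a count ran from 0.258 (Gabrq) to 1.91 (Glra4) in mutant versus WT.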
